A study of Mus musculus with 2 samples.

Results

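Resting B-lineage cells are cells of an orthotopic mouse pancreatic tumour that expressed B-cell genes. They were high in fewer than 3 of 6 genes used to mark activated B cells, mainly nucleolar and chaperone genes. They were chosen by a rule on the deposited values. A cell was taken if it stood more than 1 unit above a gene's zero level in at least 2 of the 5 genes Ighm, Cr2, Vpreb3, Iglc2 and Iglc3. The same height had to be reached in fewer than 3 of the 6 biogenesis genes Ncl, Nme1, Hspe1, Dkc1, Ppan and Il4i1, and in none of the 3 Cd3 genes. The rule found 1043 of 9773 cells, of which 302 came from the control library and 741 from the library labelled as Ahr conditional knockout (cKO).

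Both libraries were made from whole tumours grown in the pancreas from the organoid line MT4, which derives from the KPC model of pancreatic adenocarcinoma, and collected 14 days after implantation. The control mice were labelled C57/BL6 Ahr fl/fl, with an Ahr gene flanked by loxP sites and no Cre. The cKO mice carried the same floxed Ahr gene together with LysM-Cre (C57/BL6 Ahr fl/fl Lys M), so both groups carried the floxed allele. Tumours of 3 mice were pooled for each genotype, live cells were sorted, and 1 droplet-based single-cell library was made per genotype. LysM-Cre is driven by the lysozyme 2 gene, which is active mainly in macrophages, monocytes and neutrophils, and B cells are not its main target. The comparison asks how the tumour's cells differ when Ahr is deleted through LysM-Cre. With 1 library per genotype and no map from cells to mice, no test between genotypes was possible, cells are not replicates, and the intervals below are exact binomial 95% intervals that cover counting error only. A count of 0 is given with the share that 3 counts would make.

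B cells carry an immunoglobulin on their surface, made of heavy chains and of kappa or lambda light chains, and most mouse B cells use kappa. Naive B cells express the mu heavy chain (Ighm), complement receptor 2 (Cr2), MHC class II molecules for presenting antigen to T cells, and few genes of cell growth until antigen or other signals activate them. Plasma cells, the antibody-secreting end stage, instead express J chain (Jchain) and large amounts of immunoglobulin. The aryl hydrocarbon receptor (Ahr) is a transcription factor activated by small ligands, including products of tryptophan breakdown.

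The values were scaled per gene, so 1 unit is 1 SD of that gene over all cells and levels cannot be compared between genes. A height is the value minus the lowest value of that gene in the fl/fl cells, which stands for no detected RNA (the zero level). Over the 2000 genes, the median gene was at the zero level in 96.0% of fl/fl cells. In the cKO library no such level remained: for the median gene 15.2% of cKO cells lay below the fl/fl zero level, so the cKO values carried a shift. For this reason the differences between libraries are given as deposited and, where it could be estimated, after removal of the shift (for each cell, the 0.3 quantile among its 30 closest neighbours of the cKO library was taken off). The libraries also shared 656 cell barcodes, 12.6% of fl/fl and 14.3% of cKO cells, and in 623 of these pairs both cells lay within 1 unit of each other in the deposited UMAP map. Among the resting B-lineage cells only 1 fl/fl and 2 cKO cells had a shared barcode.

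Resting B-lineage cells made up a larger share of the cKO library. They were 302 of 5196 fl/fl cells, a share of 5.81% (5.19 to 6.48). In the cKO library they were 741 of 4577 cells, or 16.2% (15.1 to 17.3), a difference of 10.4 percentage points and a ratio of 2.79. The 2 counting intervals did not overlap. Without all cells with a shared barcode the shares were 6.63% and 18.8%, 12.2 points apart. Of the cells with 2 or more of the 5 B-lineage genes, 333 in the fl/fl and 850 in the cKO library, the rule then removed 9 and 11 for a Cd3 gene and 22 and 98 for 3 or more biogenesis genes. A share depends on all other cells of the library too, and genotype, library and the 3 pooled mice cannot be told apart here.

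**Figure D1:**
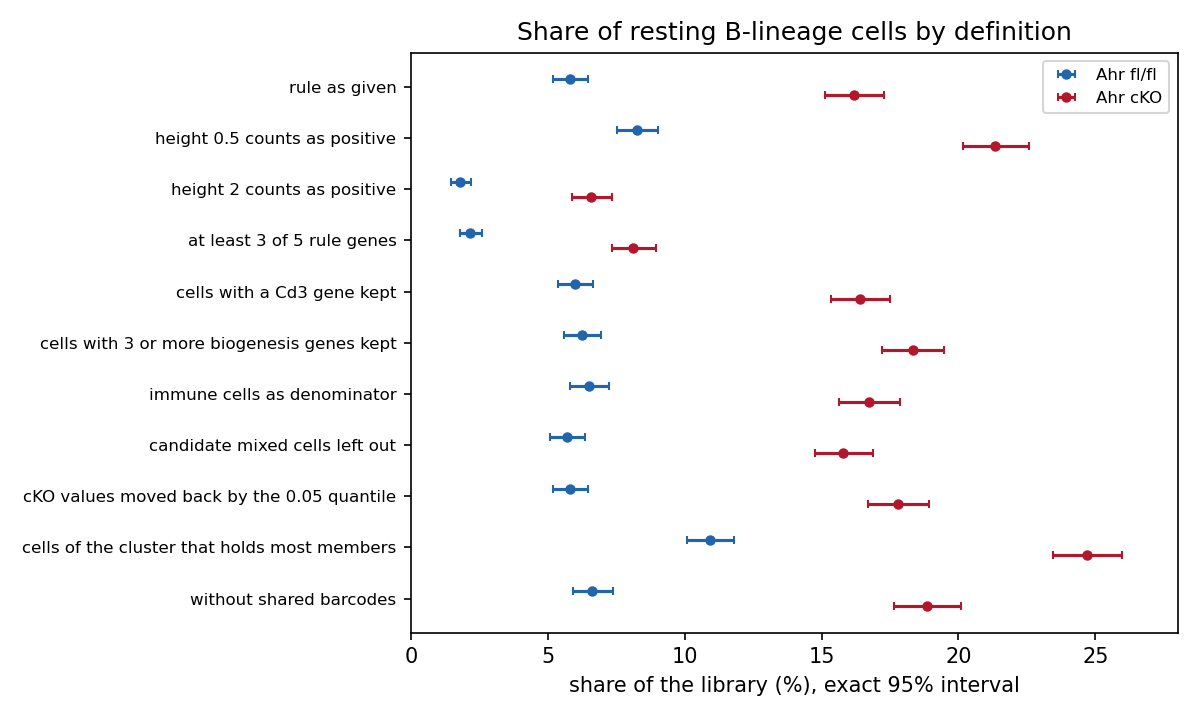
Share of each library (x axis, percent) held by resting B-lineage cells under the rule and under 10 other definitions (y axis). Points are the share in the Ahr fl/fl (blue) and Ahr cKO (red) library and bars the exact 95% interval, for counting error only. The cKO share lies above the fl/fl share under each definition, from 4.79 points at height 2 to 13.8 points for the whole cluster.

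The difference kept its direction under each of the 10 other definitions tried, shown in the plot of shares by definition, while its size in points was smaller under stricter heights and gene numbers and the ratio larger. With a height of 0.5 in place of 1 the shares were 8.26% and 21.3%, a ratio of 2.59. With a height of 2 they were 1.79% and 6.58%, a ratio of 3.67. When at least 3 of the 5 B-lineage genes were asked for, 113 fl/fl cells (2.17%) and 372 cKO cells (8.13%) were left, a ratio of 3.74. Of the cells counted by the rule, 37.4% in the fl/fl and 50.2% in the cKO library had 3 or more of the 5 genes, and 0 and 18 cells had all 5. These counts too use a fixed height on cKO values that carry the shift.

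Cells just inside and just outside the limit of the rule were compared. In the fl/fl library, 89 chosen cells had their second-highest B-lineage gene between 1 and 1.25, and 90 cells that were not chosen had it between 0.75 and 1. The cKO library held 178 and 226 such cells. The main B-cell cluster described next held 85.4% and 85.6% of these fl/fl cells inside and outside the limit, and 88.2% and 90.7% of the cKO cells. H2-Aa, an MHC class II chain that the rule did not use, averaged 1.36 inside and 1.39 outside in fl/fl, and 1.46 and 1.36 in cKO. Mzb1 averaged 1.76 inside and 1.32 outside in fl/fl, and 1.20 and 1.05 in cKO. Igkc averaged 0.87 and 0.73 in fl/fl, and 0.52 and 0.47 in cKO. Chchd10 was lower inside than outside in fl/fl (0.62 and 1.15) and higher in cKO (1.20 and 1.11).

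The label was checked against the other genes and the position of the cells. Clustering of all cells put 270 of the 302 fl/fl cells (89.4%) and 655 of the 741 cKO cells (88.4%) into 1 cluster, led by Mzb1, Iglc3, Cr2, Vpreb3 and Iglc1. Of that cluster's cells the rule took 47.5% in fl/fl and 57.9% in cKO. A cluster led by Ncl, Cr2 and Il4i1 held 6 and 52 more, and a cluster led by Jchain, Igkc and Ighm held 9 and 16. A further 6 fl/fl cells, but no cKO cell, lay in a cluster led by Lgals2, Lgals4 and Wfdc2. In the deposited UMAP map, 273 fl/fl (90.4%) and 661 cKO cells (89.2%) lay within 2.5 units of their library's median position. Map and clusters were made from the same cells and genes as the rule, so both are descriptions.

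**Figure D2:**
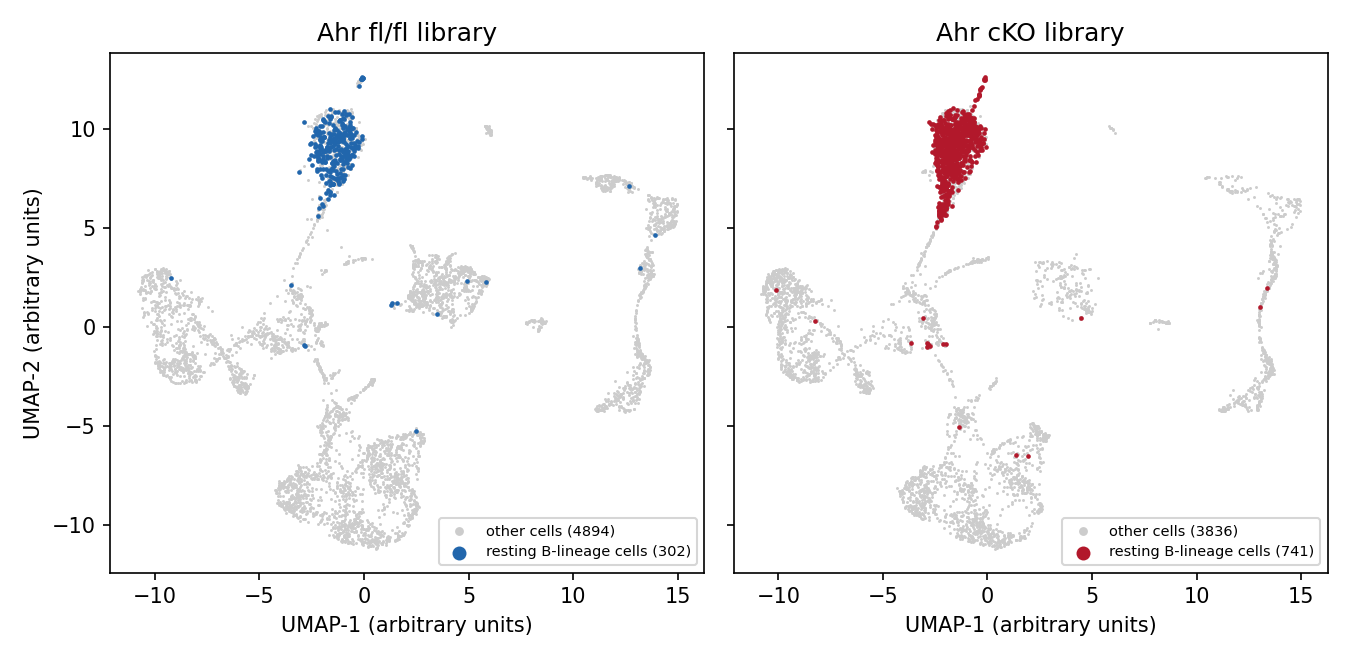
Deposited UMAP coordinates (both axes in arbitrary units) of the fl/fl cells (left) and cKO cells (right). Coloured points are the resting B-lineage cells (302 and 741) and grey points all other cells, and most coloured points lie in 1 island at the top of each map.

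Most genes that define other cell types were low in these cells. Of 9 T cell markers, 3 are the Cd3 genes that the rule bars above 1. The highest of the 9 was Cd8b1, which the rule did not use, above zero in 1.32% of fl/fl members, and of 7 natural killer markers 3 were at zero in all of them. Of 5 fibroblast markers 3 were at zero and the highest reached 0.662%, and no epithelial marker was above zero in more than 3.64%. Some abundant RNAs were detected widely at low height: Hbb-bs, a haemoglobin chain, in 48.3% of members and 49.5% of other fl/fl cells, Apoe in 30.5% and 32.4%, and S100a9, a neutrophil protein, in 22.2% and 42.7%. The mean heights of these 3 genes in the fl/fl members were 0.014, 0.10 and 0.035. Plac8, listed as a monocyte marker, was above zero in 57.9% of members and 61.3% of other fl/fl cells. Ccr7, listed as a dendritic cell marker, went the other way, with 17.9% of members and 5.52% of other fl/fl cells above zero. At least 3 markers of 1 other cell type, plasma cells aside, stood above 1 in 6 fl/fl and 18 cKO members, and without these cells the shares were 5.70% and 15.8%. At least 3 plasma cell markers stood above 1 in 7 fl/fl and 9 cKO members. These cells were kept, so the name resting does not describe every member.

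The members also had few detected genes. Fl/fl members were above zero in a median of 74 of the 2000 genes (5th to 95th percentile 42 to 123), against 112 (45 to 454) in all other fl/fl cells. The 298 fl/fl cells of the same cluster that the rule left out had a median of 69. The 22 fl/fl cells removed for biogenesis genes had a median of 109.5. Depth in molecules is unknown, since the table holds no counts, and its part in whether a cell met the rule was not tested.

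The 5 genes of the rule differed in how many members carried them. These values chose the cells and are given as a description. Iglc3, a lambda constant region, stood above 1 in 77.5% of fl/fl members, with a lowest height of 0, a median of 1.43 and a highest of 10.3. In the cKO library 65.3% of members passed, with a lowest height of -1.32, a median of 1.59 and a highest of 10.3. Vpreb3, whose product binds immunoglobulin chains during their assembly, passed in 65.2% and 60.5% of members, with medians of 1.46 and 1.18. Cr2, the receptor for complement fragments that B cells use as a coreceptor, passed in 47.0% and 47.1%. Its median was 0 in fl/fl and 0.87 in cKO, although the share of cells above 1 was nearly the same. The cells of the 2 libraries overlapped over nearly their whole range for each gene, as the plot of values by cell shows.

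Ighm and Iglc2 stood above 1 in a larger share of the cKO members. Ighm, the constant region of the mu heavy chain, stood above 1 in 27.8% of fl/fl and 49.3% of cKO members, although 95.7% of fl/fl members had some Ighm above zero. Its medians were 0.70 and 0.99, its lower quartiles 0.45 and 0.65, and its 5th percentiles 0.11 and 0.28. The height of 1 thus lay near the cKO median. The shift could not be estimated for Ighm, and its part in these shares was not tested. Iglc2 stood above 1 in 27.2% and 46.3%, with medians of 0.50 and 0.78. The Iglc2 values of the cKO library also reached lower: 32.1% of cKO members lay below the fl/fl zero level of Iglc2 and 18.5% below that of Iglc3, against 1.48% for Ighm and 0.675% for Vpreb3.

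**Figure D3:**
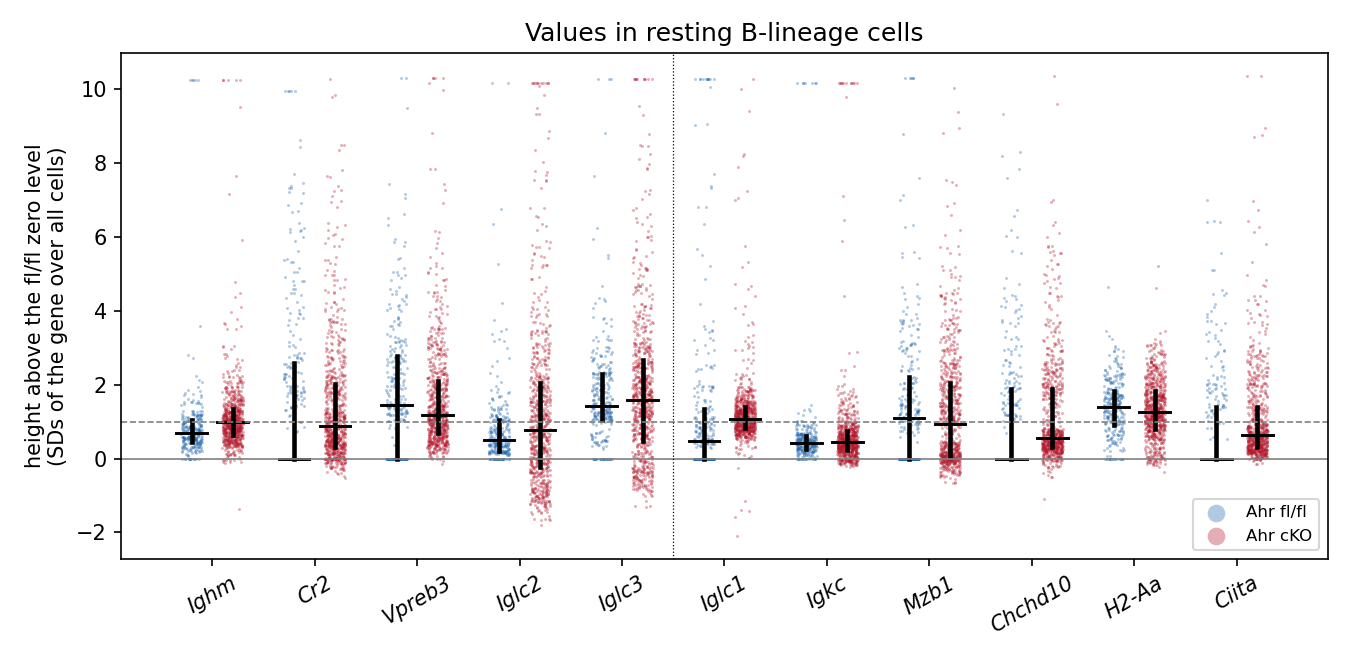
Height above the fl/fl zero level (y axis, in SDs of the gene over all cells) of 11 genes in the resting B-lineage cells, fl/fl in blue and cKO in red. Each point is 1 cell, horizontal black bars are medians and vertical bars the middle 50% of cells. Genes left of the dotted line belong to the rule, the dashed line is the height of 1 that the rule asks for, and cKO points below 0 show the missing zero level of that library.

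No single combination of the 5 genes defined the cells. In the fl/fl library the most common were Vpreb3 with Iglc3 alone (57 cells, 18.9%), Cr2, Vpreb3 and Iglc3 (40 cells), Cr2 and Iglc3 (37), and Cr2 and Vpreb3 (27). In the cKO library the same combinations held 58, 45, 61 and 51 cells, and the first of them 7.83% of members. Of 15 combinations with Ighm, 13 took a larger share of the cKO members. This count is tied to the share of members with Ighm above 1 (27.8% in fl/fl and 49.3% in cKO) and is no separate result. Some combinations without Ighm also took a larger share, such as Vpreb3 with Iglc2 alone (1.66% and 4.45%), and others a smaller one. Ighm, Vpreb3 and Iglc3 together marked 11 fl/fl (3.64%) and 41 cKO cells (5.53%), and Ighm, Vpreb3, Iglc2 and Iglc3 together 7 (2.32%) and 40 (5.40%). The exceptions among those with Ighm were Ighm with Iglc3 alone (6.29% and 5.26%) and Ighm with Cr2, Vpreb3 and Iglc3 (2.65% and 1.75%). Within the 302 fl/fl members, Ighm and Cr2 had a Spearman rho of -0.27 over cells. The rule itself, which asks for any 2 genes, favours negative values among its own genes, and the cells share 1 library.

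The 3 lambda genes Iglc1, Iglc2 and Iglc3 lie on chromosome 16, and Iglc2 and Iglc3 are near-identical copies. Their coding sequences are shown because the rule counts them as 2 genes and reads between the copies may not be separable. Each line gives the first 270 of the 314 coding bases of the constant-region exon, on the minus strand of GRCm38 in the GENCODE annotation. They lie at chr16:19198583-19198852 for Iglc2 and chr16:19065412-19065681 for Iglc3, and capitals mark the 11 bases at which the copies differ.
Iglc2: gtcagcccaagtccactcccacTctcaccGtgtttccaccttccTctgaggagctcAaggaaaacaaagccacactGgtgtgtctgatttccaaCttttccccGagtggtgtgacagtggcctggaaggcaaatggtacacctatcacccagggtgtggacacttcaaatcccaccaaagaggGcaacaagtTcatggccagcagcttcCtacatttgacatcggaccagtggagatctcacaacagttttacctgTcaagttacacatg
Iglc3: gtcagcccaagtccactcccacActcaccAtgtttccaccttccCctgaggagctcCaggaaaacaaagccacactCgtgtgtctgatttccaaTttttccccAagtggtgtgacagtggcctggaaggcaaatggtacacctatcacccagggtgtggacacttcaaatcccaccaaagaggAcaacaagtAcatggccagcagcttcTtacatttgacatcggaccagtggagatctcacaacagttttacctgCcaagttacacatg

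Iglc2 and Iglc3 are 96.5% identical over the coding part and 90.0% over the stop codon and the bases after it, whereas Iglc1 is 73.6% identical to Iglc2 over its coding part. The combination of Iglc2 with Iglc3 alone admitted 22 fl/fl and 30 cKO cells, and for these the call rests on 2 copies that the counting could have split. How reads matching both copies were treated is not given in the sources used here.

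Cells with lambda above a height of 5 had a lower median of kappa, while over all members the heights of kappa and lambda did not run opposite. A height of 5 in any of the 3 lambda genes, chosen after the values were seen, was passed by 34 fl/fl members (11.3%) and 107 cKO members (14.4%). In fl/fl their median height of Igkc, the kappa constant region, was 0.12, against 0.45 in the other 268 members. The cKO medians were 0.21 and 0.47. Igkc was at the zero level in 12 of the 34 fl/fl cells (35.3%) and in 7 of the other 268 (2.61%). Among cKO cells it was at or below that level in 38 of 107 (35.5%) and in 44 of 634 (6.94%). The lambda gene that was high differed between the libraries: Iglc1 was above 5 in 23 of the 34 fl/fl cells and in 12 of the 107 cKO cells, Iglc2 in 5 and 51, and Iglc3 in 9 and 55. The height of 5 was applied to cKO values that carry the shift, which could not be estimated for these genes. The rule also admits cells by Iglc2 and Iglc3 but not by Iglc1, and the cause of the difference was not tested. Of all fl/fl members 93.7% had Igkc above zero, mostly at low height. Over these 302 cells the Spearman rho of Igkc was 0.078 with Iglc1, 0.088 with Iglc2 and 0.11 with Iglc3, so the pattern was seen past the height of 5 and not as a trend over all cells.

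**Figure D4:**
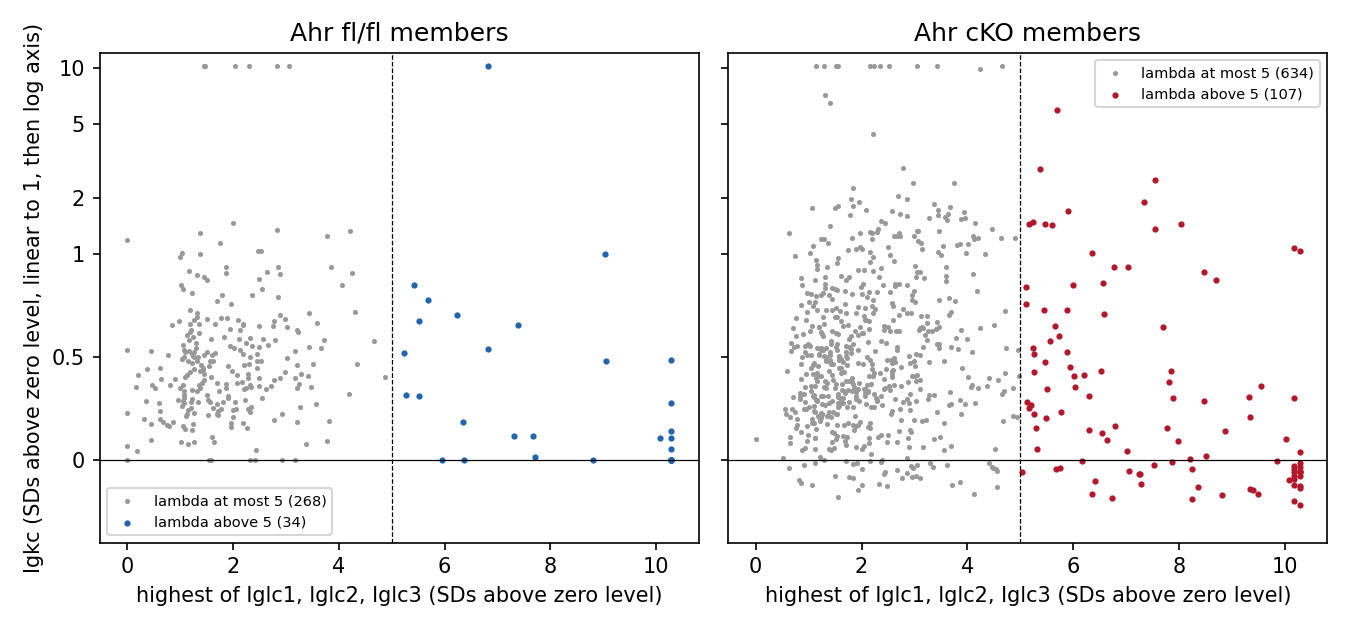
Height of Igkc (y axis, in SDs, linear up to 1 and logarithmic above) against the highest of Iglc1, Iglc2 and Iglc3 (x axis, in SDs) in the fl/fl (left) and cKO (right) members. Each point is 1 cell, coloured where lambda is above 5 (34 and 107 cells). Coloured cells gather at low Igkc, with medians of 0.12 and 0.21 against 0.45 and 0.47 in the grey cells.

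Outside the rule, the 10 genes with the largest differences in fl/fl members were Mzb1, Iglc1, Chchd10, Gm30211, H2-Aa, H2-Eb1, Lmo2, H2-Ab1, Ciita and Igkc. Of the 2000 genes, 65 (3.25%) were at least 0.1 higher in the 302 members than in the other 4894 fl/fl cells and 1014 (50.7%) at least 0.1 lower, with a median over all genes of -0.10. Because the rule chose the members by these cells, the values below are a description. Mzb1, an endoplasmic reticulum protein of marginal zone B cells and plasma cells, had the largest difference, 1.38, and was above zero in 61.6% of members and 5.97% of other cells. Iglc1 was 1.19 higher. Igkc was above zero in 93.7% of members and 24.1% of other cells. Among MHC class II genes, H2-Aa was 0.82, H2-Eb1 0.74 and H2-Ab1 0.59 higher, and Ciita, their transcriptional activator, 0.57 higher. Dtx1, a regulator of Notch signalling, was 0.42 higher, and Irf8, a transcription factor of B cells and myeloid cells, 0.37 higher.

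The same genes were found in the cluster's cells that the rule left out. Mzb1 was above zero in 53.7% of the 298 fl/fl cells of the same cluster that were no members, Igkc in 92.6%, H2-Aa in 92.6%, Ciita in 40.3% and Chchd10 in 35.2%. Vpreb3, by contrast, was above zero in 24.8% and Cr2 in 15.8% of them. Both are genes of the rule.

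Chchd10, which encodes a mitochondrial protein, followed Mzb1 and Iglc1 among the genes outside the rule. It was 0.92 higher than in other fl/fl cells and above zero in 40.7% of members, against 10.9%. In the fl/fl members its heights ran from 0 through a median of 0 to 9.33, and in the cKO members from -1.08 through 0.57 to 10.4. Chchd10 (chr10:75933130-75937747) and Vpreb3 (chr10:75943057-75949657) are neighbours on the plus strand of chromosome 10, with 5309 bases between these GENCODE spans. Over the 302 fl/fl members their heights had a Spearman rho of 0.30, which was the highest among the 36 gene pairs compared, and the cells share library and depth.

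The sequence before the RefSeq start of each of these neighbours holds the octamer ATTTGCAT, the motif bound by octamer factors in immunoglobulin promoters. The RefSeq start of Vpreb3 lies inside its GENCODE span, which begins farther upstream, so the Vpreb3 window falls within that span. Both windows of 250 bases are shown because the genes lie side by side and were both high in the members. They lie on the plus strand of GRCm38 at chr10:75948050-75948299 for Vpreb3 and chr10:75932880-75933129 for Chchd10, with the octamer or its reverse complement ATGCAAAT in capitals.
Vpreb3: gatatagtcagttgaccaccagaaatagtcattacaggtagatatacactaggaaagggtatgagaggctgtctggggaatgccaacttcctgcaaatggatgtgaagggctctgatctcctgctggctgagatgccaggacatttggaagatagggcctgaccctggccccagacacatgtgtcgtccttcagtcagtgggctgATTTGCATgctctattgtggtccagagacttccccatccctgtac
Chchd10: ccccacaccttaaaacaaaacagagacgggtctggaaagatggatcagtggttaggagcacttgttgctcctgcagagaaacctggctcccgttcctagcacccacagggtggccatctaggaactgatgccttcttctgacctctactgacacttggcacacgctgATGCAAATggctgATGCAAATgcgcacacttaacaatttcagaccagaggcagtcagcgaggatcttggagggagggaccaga

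Searched on both strands, the octamer was found in 1 place before Vpreb3 and in 2 before Chchd10. Of all 32851 RefSeq windows of this length, 1.60% hold it. Among the 25 leading and rule genes, 15 had a promoter entry and these 2 had a match. A match is a description of the letters and does not show that a factor binds there.

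Gm30211, a long non-coding RNA, came next, 0.88 higher than in other fl/fl cells and above zero in 23.8% of members against 2.23%. It lies at chr6:70719074-70740554 on the plus strand, and all 532 bases of Igkc (chr6:70726435-70726966, same strand) lie inside it. Reads of the kappa locus could therefore have been counted for either gene, and the value of Gm30211 is uncertain. Its difference between the libraries was 0.06 as deposited and -0.27 with the shift removed. Lmo2, a transcriptional cofactor, was 0.66 higher. The remaining leading genes, from Fam214a (0.53) and Hmgn1 (0.53) to Pkib (0.35), were above zero in 6.29% to 48.0% of members.

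The lowest values against other fl/fl cells were those of S100a6, Anxa2 and Ldha. S100a6 was 0.73 lower in the members than in other fl/fl cells (difference -0.73), Anxa2 -0.72, and Ldha, which encodes lactate dehydrogenase, -0.69. S100a6 was above zero in 18.9% of members and 70.9% of other cells. Of 24 cell-cycle genes, 22 were at least 0.1 lower and none higher, beside 50.7% lower and 3.25% higher over all 2000 genes. Mki67, a proliferation marker, stood above 1 in 4 fl/fl (1.32%) and 12 cKO members (1.62%), and Top2a in 4 and 11. Few members of either library thus stood above 1 in Mki67 or Top2a. The rule used neither gene, but it leaves out cells with 3 or more biogenesis genes. Other cell-cycle genes were above zero in up to 44.0% of fl/fl members.

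Genes of later B-cell stages marked small subsets. Jchain stood above 1 in 9 fl/fl (2.98%, 1.37 to 5.58) and 16 cKO members (2.16%, 1.24 to 3.48). Ighg2b, a switched heavy chain, did so in 6 (1.99%, 0.733 to 4.27) and 34 members (4.59%, 3.20 to 6.35), with overlapping intervals. Ighg2c was above 1 in 4 and 2. The precursor genes Vpreb1 and Igll1, which form the surrogate light chain, were each above 1 in 1 fl/fl member. Vpreb1 was above 1 in 1 cKO member and Igll1 in 0 of 741, which allows a share of up to 0.405% (3 counts of 741).

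Ahr itself was seldom detected in these cells. It stood above 1 in 10 of 302 fl/fl members (3.31%, 1.60 to 6.01) and 7 of 741 cKO members (0.945%, 0.381 to 1.94), and its mean heights were 0.12 and 0.10. At the lower limit of any height above zero, Ahr was found in under 5% of fl/fl members and in 12.3% of the other fl/fl cells. The mean difference between libraries was -0.02 as deposited and -0.07 with the shift removed. Lyz2, whose promoter drives the Cre, was above 1 in 0 of 302 fl/fl members, which allows a share of up to 0.993% (3 counts of 302), and in 3 cKO members. Where the counted Ahr reads lie relative to the floxed exon is not given in the sources used here, so the Ahr level is no check of the deletion.

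Between the libraries, 335 genes detected in 5% or more of the fl/fl members were compared, with a difference of mean heights of 0.1 taken as higher or lower. In the cKO members 47 genes (14.0%) were higher and 34 (10.1%) lower, and the median over the 335 genes was 0.0070. For 293 of these genes the shift could be estimated. As deposited, 38 of them (13.0%) were higher and 28 (9.56%) lower. With the shift removed 59 (20.1%) were higher and 12 (4.10%) lower, with a median of 0.030. Of the 66 genes that passed 0.1 in either direction as deposited and had an estimate, 30 kept sign and size (24 higher, 6 lower), 21 kept the sign under 0.1, and 15 changed sign. No SE or p is given, since it would rest on cells of 1 library per genotype.

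**Figure D5:**
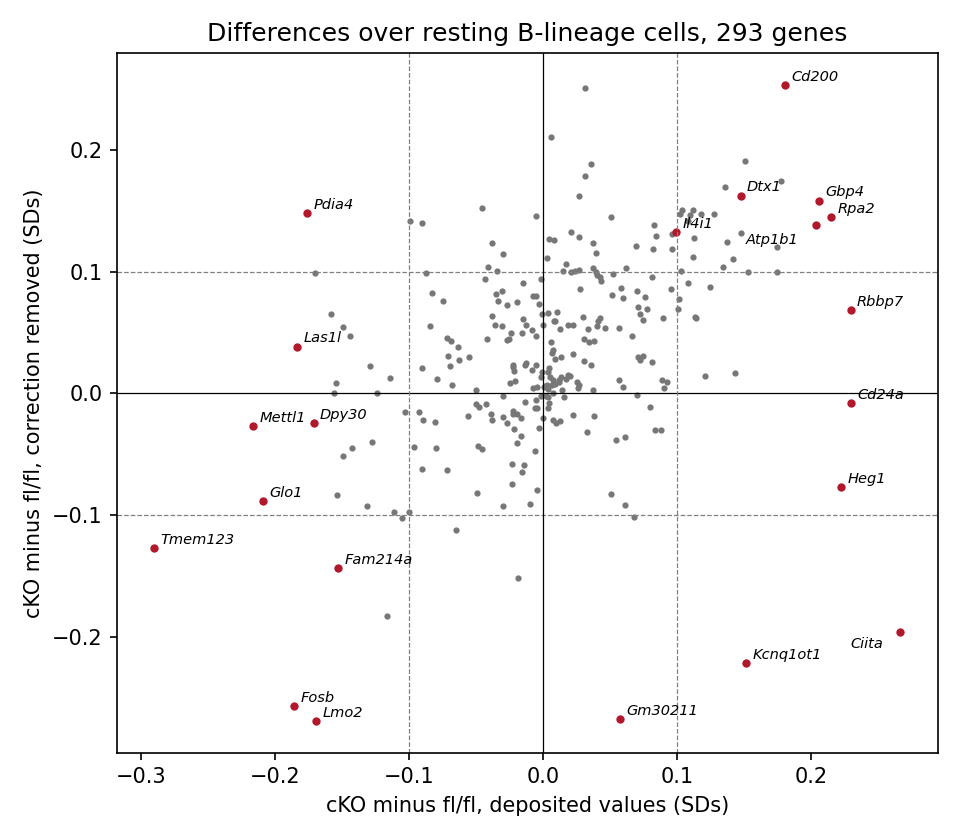
Difference of mean height between cKO and fl/fl members for 293 genes, as deposited (x axis, in SDs) and with the estimated shift removed (y axis, in SDs). Each point is 1 gene, dashed lines mark 0.1 in size, and named genes in red are some of those the text describes. Points in the upper right and lower left keep their direction, whereas Ciita, Kcnq1ot1 and Pdia4 lie in the other quadrants.

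Among genes whose direction held under both scales, Cd200, a surface glycoprotein, was 0.18 higher in the cKO members as deposited and 0.25 with the shift removed. It stood above 1 in 8.28% of fl/fl and 14.3% of cKO members. Dtx1 was 0.15 and 0.16 higher and stood above 1 in 11.9% and 17.0%. Gbp4, an interferon-induced GTPase, was 0.21 and 0.16 higher, although it was above 1 in 6.95% and 7.29% of members. Rpa2, a subunit of the single-strand DNA binding complex, was 0.22 and 0.14 higher, and Atp1b1, a sodium pump subunit, 0.20 and 0.14 higher. With at least 3 of the 5 rule genes asked for, the Cd200 difference dropped to 0.060, whereas Dtx1, Gbp4, Rpa2 and Atp1b1 stayed above 0.1 under each alternative run. Each of these differences was well under the SD over cells, which for Cd200 was 1.59 in fl/fl and 1.84 in cKO members. These genes were above zero in 5.63% to 11.9% of fl/fl members, where removal of the shift can raise differences.

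Lower in the cKO members under both scales were Tmem123 (-0.29 as deposited, -0.13 with the shift removed), Lmo2 (-0.17 and -0.27), Fosb (-0.19 and -0.26) and Fam214a (-0.15 and -0.14). Fosb and Tmem123 stayed past 0.1 under each alternative run, whereas Lmo2 was -0.093 at height 0.5 and Fam214a -0.017 over the whole cluster. Fosb, an immediate early transcription factor, stood above 1 in 16.2% of fl/fl and 7.29% of cKO members. Its heights in fl/fl members ran from 0 through a median of 0 to 9.90, and in cKO members from -0.591 through 0.219 to 8.70. Lmo2 stood above 1 in 32.5% and 22.7%, and Tmem123 in 28.1% and 17.9%. Most cells of both libraries were at low heights of these genes, and their ranges overlapped.

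Other large deposited differences did not hold in direction or size. Ciita was 0.27 higher in the cKO members as deposited and 0.20 lower with the shift removed (-0.20), while 30.5% of fl/fl and 32.4% of cKO members stood above 1. Cd24a, a surface protein of B cells and many other cells, was 0.23 higher as deposited and -0.0083 with the shift removed. Heg1 was 0.22 and -0.077, Kcnq1ot1 0.15 and -0.22, and Pdia4, an endoplasmic reticulum chaperone, -0.18 and 0.15. Las1l was -0.18 and 0.038. Rbbp7 (0.23 and 0.068), Mettl1 (-0.22 and -0.027), Glo1 (-0.21 and -0.089) and Dpy30 (-0.17 and -0.024) kept their direction but not the size of 0.1. For Iglc2 (0.44), Ighm (0.24), Cr2 (-0.28), Mzb1 (-0.25) and Vpreb3 (-0.19) the shift could not be estimated, as too many cells express them, and all but Mzb1 were rule genes. Mzb1 stood above 1 in 52.6% of fl/fl and 48.7% of cKO members.

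The gene lists of B-cell biology were read against these background shares. Of 16 immunoglobulin genes 11 were measured and 6 passed the 5% limit, of which Iglc2, Ighm and Iglc3 (0.12) were higher and Vpreb3 lower in the cKO members, with a median of 0.077. Igkc (0.03) and Iglc1 (-0.04), the members of this list that the rule did not use, were neither by mean. Their shares above 1 were larger in the cKO library, 5.63% of fl/fl and 13.9% of cKO members for Igkc and 30.8% and 59.2% for Iglc1. The mean of Iglc1 was 1.31 in fl/fl and 1.27 in cKO members, but the median was 0.48 against 1.08 and the 95th percentile 7.38 against 2.45. For Iglc1 the shift could not be estimated, and the cause of this change in spread was not tested. Of 5 MHC class II genes only Ciita passed 0.1 by mean and the median over the genes was -0.053. H2-Aa averaged 1.39 ± 0.76 (SD over 302 cells) in fl/fl and 1.34 ± 0.79 (SD over 741 cells) in cKO members, and H2-Ab1 and H2-Eb1 differed by -0.08 and -0.09. By median height H2-Aa differed by -0.13, H2-Eb1 by -0.14 and H2-Ab1 by -0.010.

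Of 24 nucleolar, chaperone and biogenesis genes, 20 passed the 5% limit. As deposited, Ncl (0.16) and Wdr43 (0.15) were higher in the cKO members and Nop56 (-0.14) and Dkc1 (-0.13) lower, with a median of 0.019. With the shift removed Wdr43 was 0.10, but Nop56 was -0.045 and Dkc1 0.022, so both lower calls ended. For Ncl the shift could not be estimated, and over the whole cluster Ncl differed by 0.075. With the shift removed 4 of 16 genes of the list were higher, beside 20.1% of all 293 genes, and none was lower, beside 4.10%. The list's median was then 0.059, beside 0.030 over all genes. The rule limits 6 genes of this list, so their levels in the members are bounded. It does not bar these genes, and Ncl stood above 1 in 16.2% of fl/fl and 21.2% of cKO members. In the cells the rule removed for them, Ncl averaged 1.69 in fl/fl and 1.72 in cKO, against 0.44 and 0.60 in the members. Il4i1, an enzyme that oxidises aromatic amino acids and is listed with the AHR pathway, was above 1 in 25 fl/fl (8.28%, 5.43 to 11.98) and 91 cKO members (12.3%, 10.0 to 14.9), and its mean difference was 0.0996 as deposited and 0.13 with the shift removed.

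Of 4 plasma cell genes above the limit, Mzb1 and Xbp1 (-0.13), a transcription factor of secretory cells, were lower in the cKO members as deposited, and the median was -0.050. With the shift removed Xbp1 was -0.093 and fell short of 0.1. Txndc5 was 0.08 as deposited and -0.011 with the shift removed, and Sdf2l1 0.03 on both scales. Of 4 activation and immediate early genes only Fosb passed 0.1. Cd83, a surface marker of activated B cells, stood above 1 in 55 fl/fl (18.2%, 14.0 to 23.0) and 100 cKO members (13.5%, 11.1 to 16.2), while its mean differed by 0.09 as deposited and 0.004 with the shift removed. Ccr7, a chemokine receptor that guides lymphocytes into lymph nodes, stood above 1 in 16.9% and 13.8%, and its means differed by -0.04 as deposited and -0.0089 with the shift removed.

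Among 20 measured interferon response genes 4 passed the limit: Gbp4 was higher, and Ly6a (-0.15, with no estimate of the shift) lower. With at least 3 of 5 rule genes Ly6a was -0.088. Isg20 was -0.08 as deposited and -0.045 with the shift removed, and Bst2 -0.01 and -0.059. None of 3 cell-cycle genes and none of 6 dissociation and stress genes passed 0.1 by mean, with medians over genes of -0.012 and 0.0022. The median height of Hsp90aa1, a stress gene, differed by -0.17. Of the signalling list Cr2, Cd24a and Fcgr2b (0.06 as deposited, 0.011 with the shift removed) were measured, the last being the inhibitory Fc receptor of B cells. Irf8, 1 of 17 listed B-cell transcription factors that was measured, differed by 0.04 in its mean and by -0.18 in its median. Of 14 marginal zone and B-1 genes 6 were measured and 2 passed the limit, Dtx1, which was higher, and Mzb1, which was lower. None of the 3 measured germinal centre genes reached the limit. Of 4 measured regulatory genes Cd274 and Lgals1 did, and differed by 0.02 and -0.02 as deposited and by 0.032 and 0.0082 with the shift removed. Of 5 measured genes of the AHR pathway only Il4i1 reached the limit. As deposited, none of the lists had a median of 0.1 or more in size.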

How the data were processed

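Single-cell RNA profiles of 2 libraries were used, each from pooled tumours of 3 mice. Per the submitters' processing notes, Cell Ranger 3.0.0 and Seurat 3.1.4 and the build mm10 (GRCm38) were used; further steps are not given in the sources used here. The deposited table holds a scaled score per gene and cell (2000 genes, 9773 cells, highest value 10), made by the authors, and a second deposited table holds UMAP coordinates, also a score. Neither holds counts, so depth, count models and folds were not available.

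Members, lists and comparisons were chosen with earlier results of these data known. Cells were clustered with scanpy 1.11.5 (30 principal components, 15 neighbours, Leiden resolution 1). No doublet treatment is stated, and none could be run. Members with 3 or more markers of 1 other cell type above 1, plasma cells aside, were candidate mixed cells. The shift was estimated where under 40% of the fl/fl members expressed a gene. The scripts were tested on simulated data with a known local shift and no further scatter of cells around zero. Named genes were the rule genes, Ahr, Lyz2, the 20 leading genes, the 10 highest and 10 lowest differences, list genes above zero in at least 5% of members (up to 6 each) and the top markers of other types. Lowest genes against other cells, genes above 1 by count, lambda groups and genes outside this rule were chosen after their values were seen. Alternatives were other heights, definitions of membership, denominators and gene filters.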

Additional observations from a re-analysis of the deposited data

How the results depend on the processing

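The difference in the share of resting B-lineage cells was 10.4 points, and 13.1 at height 0.5, 4.79 at height 2, 5.95 with at least 3 of 5 rule genes, 12.1 with cells of 3 or more biogenesis genes kept and 11.97 with cKO values moved back by the 0.05 quantile. Added after seeing the data, it was 12.2 without shared barcodes and 13.8 for the cluster that holds most members. Keeping cells with a Cd3 gene, counting immune cells alone or leaving out candidate mixed cells moved it by less than the counting interval. Moving cKO values back by the 0.05 quantile does not show what the shift adds to the cKO share. Over cKO members the 5th percentile was -1.16 for Iglc2, -0.65 for Iglc3 and -0.10 for Cr2, but 0.28 for Ighm and 0.26 for Vpreb3. Taking off a low quantile can thus raise heights, and cKO members rose from 741 to 814 under that setting. The alternative that took clusters in which most fl/fl cells are members gave no value, since none reached that share (47.5% at most).

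The 47 higher genes became 96 over all measured genes and 73 at height 2. With medians in place of means for genes above zero in over 50% of fl/fl members, 45 were higher and 39 lower. The 34 lower genes became 12 with the shift removed (28 as deposited over the same 293 genes), 75 over all genes, 56 at height 2 and 53 with at least 3 of 5 rule genes. Lists with a median of 0.1 or more in size were 0 as deposited and 3 with the shift removed. These rest on few genes with an estimate: marginal zone and B-1 genes (0.16, 1 gene, Dtx1), MHC class II genes (-0.11, 2 genes) and AHR pathway genes (0.13, 1 gene, Il4i1).

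Of the 32 named genes that passed 0.1 as deposited, 24 had an estimate of the shift, and 7 of these changed sign with the shift removed: Cd24a (-0.0083), Ciita (-0.20), Heg1 (-0.077), Kcnq1ot1 (-0.22), Las1l (0.038), Pdia4 (0.15) and Dkc1 (0.022). Dkc1 was 0.056 at height 2. Vpreb3 was 0.10 and Iglc3 -0.075 at height 0.5, and over the whole cluster Cr2 was 0.066 and Vpreb3 0.15. With at least 3 of 5 rule genes Fam214a was 0.021, Lamb3 0.042, Las1l 0.016 and Xbp1 0.00063. With at least 3 of 5 rule genes Cd200 was 0.060 and Ly6a -0.088. The cause was not tested. Leaving out shared barcodes or candidate mixed cells moved none of the 68 named genes by 0.1 or more.

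No paired analysis was possible because each genotype has 1 library and both carry the same replicate number. With 1 library per genotype, no value here separates genotype from library or mouse. A scaled table keeps neither depth nor, in the cKO library, a zero level, so the direction of single differences is uncertain, up to that of Ciita (0.27 as deposited).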
